A study of Mus musculus with 24 samples.

Results

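Collagen genes were measured through the differentiation of mouse embryonic stem cells into neurons, in cells with and without the transcriptional repressor REST. The members are all genes whose symbol consists of Col, a number, the letter a and a number, each read from a probe set with that single symbol. Of several such probe sets the one with the highest mean in its value table was used. There were 44 collagen genes among 19938 genes on 18 arrays, and 42 among 18194 genes on 6 arrays of another design, where Col6a6 and Col28a1 had no single-symbol probe set. Cells of the Black Agouti 129 strain were on the 18 arrays, with 3 arrays in each of 6 groups. Embryonic stem cells (ES) and neuronal progenitors (NP) were labelled RESTko or RESTwt, and terminal neurons (TN) RESTko or RESThet, so that the control at TN is a heterozygous knock-out and no group is a REST wildtype at that stage. The 6 arrays hold wildtype cells whose strain is a 129Sv-C57Bl/6 mix, with 2 arrays for each stage. The labels call the arrays biological replicates a to c without saying whether these were separate cultures or how many cell lines stand behind a genotype, so the p-values speak only of the spread among these arrays, which may be technical.

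Collagens are proteins of 3 chains wound into a triple helix, and each gene encodes a single kind of chain. Fibrillar collagens (types I, II, III, V, XI, XXIV and XXVII) form the fibrils of connective tissue and cartilage, while type IV collagen forms the network of basement membranes. Beaded filament collagens (type VI) lie around cells, the fibril-associated collagens called FACITs sit on fibril surfaces, multiplexins (types XV and XVIII) belong to basement membrane zones, and a few collagens span the plasma membrane. In the nervous system collagen chains are made mainly by the meninges, vessels and other non-neuronal cells, although some, such as the transmembrane collagen of the gene Col25a1, are known from neurons. REST silences neuronal genes outside the nervous system by binding a DNA element named RE1.

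Values are log2 signals of probe sets. A difference is that of 2 mean log2 signals, with the standard error (SE) of limma. A gene was called where its limma p-value was under 0.05 after Benjamini-Hochberg adjustment across every gene in the comparison. A signal also depends on the probe set, so levels of different genes are not ranked against each other. The arrays measure RNA of a whole culture, in which fewer cells of a type and less RNA per cell cannot be told apart. On the 18 arrays, 14 collagen genes lay below the array's median gene on every array (among them Col8a1, Col10a1, Col17a1 and Col5a2), and 7 lay above it on every array (Col1a1, Col1a2, Col2a1, Col5a1, Col4a1, Col4a2 and Col26a1).

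On the 18 arrays the list of 8 neuron markers followed the stage labels. Its log2 summed signal lay between 9.70 and 10.39 at ES, between 11.00 and 12.19 at NP, and between 13.52 and 13.93 at TN. That of 10 fibroblast and mesenchyme markers was higher at each later stage as well, at 8.64 to 8.88 in ES cells, 9.68 to 10.02 in progenitors and 11.46 to 12.11 in the TN cultures. At TN on the 18 arrays, 1 of these 10 markers (Ogn, in RESThet) lay below the median gene on all arrays of a group. Cultures labelled as neurons there carried transcripts of this list together with neuronal ones. In the mixed strain at TN, 5 of the 10 lay below it (Lum, Pdgfrb, Twist1, Prrx1 and Ogn). All 7 endothelial markers and 7 of 8 cartilage markers lay below the median gene at TN. The mixed-strain neuron list had a lower log2 sum at NP (10.69 to 10.93) than at ES (11.04 to 11.08). Of its genes, 6 were called higher in that step and 1 lower. A list of 8 neural progenitor markers there had a higher sum at TN (12.45 to 12.86) than at NP (11.57 to 11.79). Of these, 7 were called lower and 1 higher. On the 18 arrays 8 ES cell markers summed to 14.15 to 14.34 in ES cells. Progenitors still had 9.63 to 11.05, and TN cultures 8.53 to 10.61. Signal of Rest, the targeted gene, went with the labels at ES alone: RESTko minus control was -0.36 at ES, -0.01 at NP and 0.34 at TN. The labels do not say which part of the gene was deleted, so "RESTko" below means the arrays labelled RESTko. On the 18 arrays the median gene signal itself was higher at later stages (ES 5.46 to 5.53, NP 5.80 to 5.87, TN 5.93 to 6.03), and array processing and stage cannot be told apart for a shift of this size. One array stood apart for a collagen result: of the 2 mixed-strain ES arrays, replicate b carried more signal of 8 primitive and parietal endoderm markers (log2 sum 8.94 against 7.53).

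From ES to NP, most fibrillar chains, 4 of the 6 basement membrane chains and the FACIT chain Col12a1 rose, while no type VI chain was called higher in RESTwt cells. In RESTwt cells 18 of 44 collagen genes rose and 6 fell, with a median difference of 0.17 against -0.07 over all genes. Of all genes, 31.0% were called higher and 36.1% lower. In RESTko cells 20 rose and 4 fell (median 0.12 against -0.04), beside 32.2% and 33.9% of all genes. In the mixed strain 13 of 42 rose and 4 fell (median 0.15 against -0.01), beside 19.9% and 19.0% of all genes. The split on the 18 arrays depends on scaling: with quantile normalization it was 16 higher and 11 lower in RESTwt and 13 and 9 in RESTko, and with each array centred on its median 13 and 13 in RESTwt and 16 and 11 in RESTko. Median centring moved the median of all genes to -0.25 in RESTwt and -0.21 in RESTko.

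**Figure D1:**
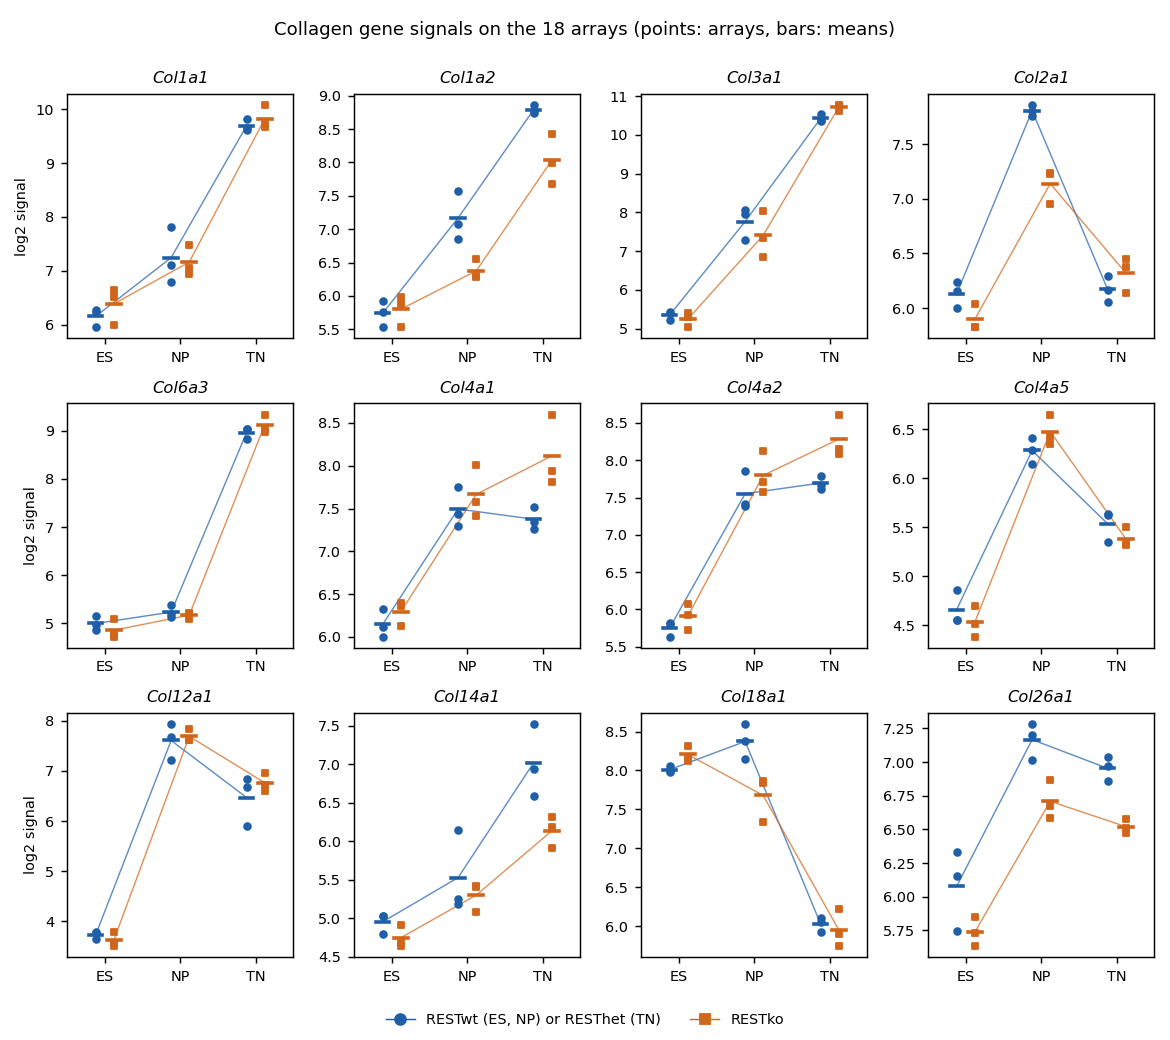
Log2 signals of 12 collagen genes on the 18 arrays, by stage (ES, NP, TN), for arrays labelled RESTwt or RESThet (circles) and RESTko (squares); short bars are means of 3 arrays, lines join the means, and each panel has its own axis. Col2a1, Col4a5 and Col12a1 are highest at NP, Col3a1, Col1a1 and Col6a3 at TN, and Col18a1 is lowest at TN.

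Among the 11 fibrillar genes, 8 rose and 2 fell in RESTwt and 9 rose and 1 fell in RESTko. Col3a1 (chromosome 1), the single chain of type III collagen of soft tissues, read 5.23, 5.40 and 5.43 on the 3 RESTwt arrays at ES and 8.06, 7.28 and 7.95 at NP. The groups did not overlap, and the difference was 2.41 (SE 0.22, adjusted p = 2.38e-08, limma), a 5.32-fold change. Col2a1 (chromosome 15), the chain of cartilage collagen type II, read 6.00, 6.15 and 6.24 at ES and 7.75, 7.86 and 7.81 at NP in RESTwt. All NP arrays were higher, by 1.68 on average (SE 0.10, adjusted p = 9.61e-11, limma). Col11a1, which encodes a chain copolymerized with type II, rose by 1.47 in RESTwt and 1.35 in RESTko. Col5a1, a regulatory chain of fibril assembly, rose by 0.89 and 0.45. Both chains of type I collagen, the main collagen of bone and skin, rose too: Col1a1 by 1.09 in RESTwt and 0.78 in RESTko, and Col1a2 by 1.43 and 0.58. With quantile normalization the RESTko rises of Col1a2 (0.33) and Col5a1 (0.21) were not called. Col5a3, another type V chain, fell by 0.27 in RESTwt and 0.29 in RESTko, calls that each ended in 3 of 6 omissions of a single array (RESTwt -0.33 to -0.20, RESTko -0.35 to -0.21), and Col5a2 fell by 0.47 in RESTwt, with -0.13 in RESTko (adjusted p = 0.377, limma).

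Of the 6 type IV genes, 4 rose and 1 fell in each genotype. Col4a1 and Col4a2, the chains of the ubiquitous network, rose by 1.35 and 1.80 in RESTwt and by 1.37 and 1.89 in RESTko. Col4a5 and Col4a6, the X-linked pair of chains found in fewer basement membranes, rose by 1.62 and 0.79 in RESTwt and by 1.94 and 1.06 in RESTko. Col4a4, a chain of the kidney and lung networks, fell by 0.41 and 0.29, and Col4a3, its partner, differed by -0.21 and -0.22 without passing the test.

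Col12a1 (chromosome 9), the FACIT chain of type XII collagen, had the largest rise of any collagen gene in both genotypes. It read 3.64, 3.76 and 3.78 at ES and 7.68, 7.21 and 7.94 at NP in RESTwt, and 3.79, 3.56 and 3.50 against 7.62, 7.62 and 7.84 in RESTko. The change was 14.8-fold in RESTwt (difference 3.88, SE 0.20, adjusted p = 7.01e-12, limma) and 16.8-fold in RESTko. At ES it lay below the array's median gene on all arrays, so these folds rest on a dim baseline that was not tested against background. On the 6 mixed-strain arrays Col12a1 read 3.94 and 3.79 at ES and 4.40 on both NP arrays, a difference of 0.54, and its 4 probe sets there gave 0.07 to 0.54. Col12a1 lay below the median gene on all 6 of these arrays. The platforms thus gave very different sizes for this gene. Col9a2, a chain of the cartilage FACIT type IX, read 6.55, 6.83 and 6.74 at ES and 6.48, 6.43 and 6.28 at NP in RESTwt; its difference of -0.31 was not called.

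Col18a1 (chromosome 10), the multiplexin whose C-terminal fragment is endostatin, was the only member called in opposite directions in the genotypes. In RESTwt it read 7.99, 7.98 and 8.06 at ES and 8.37, 8.60 and 8.15 at NP, higher by 0.36 (SE 0.14, adjusted p = 0.0288, limma). In RESTko it read 8.13, 8.17 and 8.32 at ES and 7.34, 7.86 and 7.84 at NP, lower by 0.53 (SE 0.14, adjusted p = 0.00281, limma). Neither pair of groups overlapped. The RESTwt rise depended on scaling: it was 0.18 with median centring (adjusted p = 0.218, limma) and 0.27 with array weights (adjusted p = 0.0574, limma), and 4 of 6 omissions of a single array ended the call (0.25 to 0.47). The RESTko fall kept its call under each alternative. The mixed-strain wildtype arrays, on the other platform, read 8.86 and 8.83 at ES and 9.80 and 9.45 at NP, higher by 0.78 (SE 0.21, adjusted p = 0.0185, limma), and 3 of 4 omissions ended that call (0.60 to 0.96, adjusted p up to 0.122, limma). Col26a1, which encodes an EMI-domain collagen on chromosome 5, rose by 1.09 in RESTwt, 0.97 in RESTko and 1.50 in the mixed strain, where its other probe set gave -0.11. Among the transmembrane genes Col25a1 rose by 0.32 in RESTwt (0.14 and not called with median centring, 0.17 and not called with array weights) and 0.56 in RESTko, and Col17a1 of epithelial anchoring fell by 0.49 in RESTwt, with -0.17 in RESTko, and the interaction was not called. Of the 7 beaded filament genes none rose in RESTwt and Col6a3 rose by 0.31 in RESTko, a call that ended with either scaling (0.16 and 0.14). Col6a5 fell by 0.70 in RESTwt and 0.60 in RESTko. Col7a1, the anchoring fibril chain, was not called in any comparison.

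**Figure D2:**
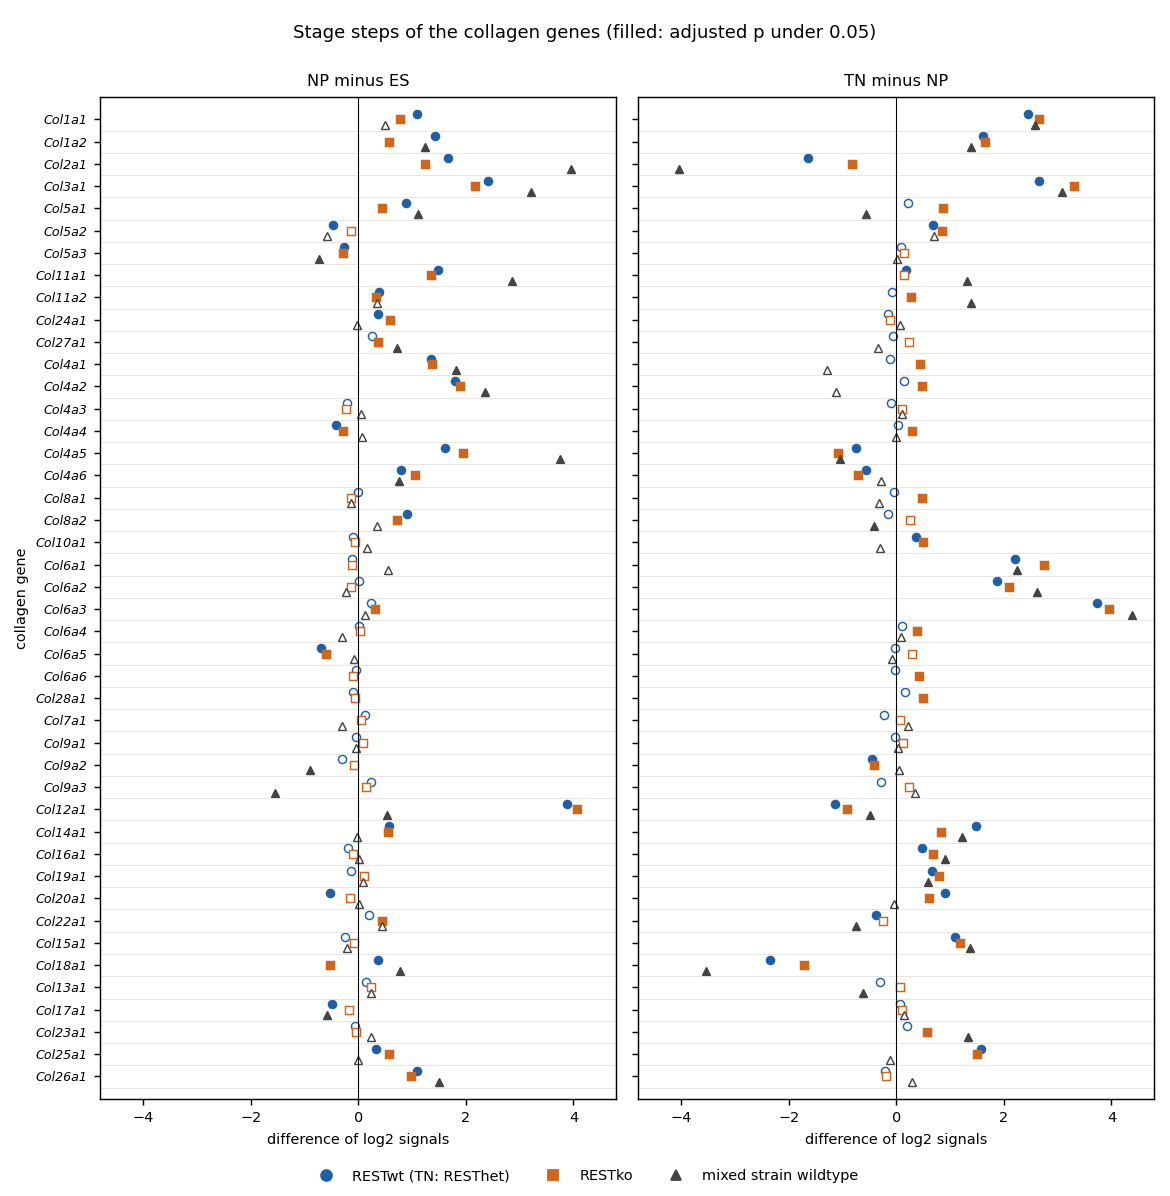
Differences of mean log2 signals for each collagen gene from ES to NP (left) and from NP to TN (right), in RESTwt (RESThet at TN), RESTko and mixed-strain wildtype cells; filled symbols have an adjusted p under 0.05 in limma, and Col6a6 and Col28a1 have no mixed-strain value. Col6a3, Col3a1 and Col1a1 lie far to the right in the step to TN, and Col18a1 and Col2a1 to the left.

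From NP to TN the chains of types I and III and the type VI chains Col6a1, Col6a2 and Col6a3 rose several-fold, while Col18a1, Col2a1, Col12a1 and Col4a5 fell. In RESTko cells 24 of 44 genes rose and 6 fell (median 0.33 against 0.13 over all genes), beside 41.8% of all genes called higher and 29.2% lower. From RESTwt NP to RESThet TN, a step in which stage and genotype change together, 15 rose and 7 fell (median 0.05 against 0.14), beside 43.2% and 29.9%. In the mixed strain 13 of 42 rose and 8 fell (median 0.07 against -0.09), beside 21.7% and 29.1%. The median of all genes depends on scaling here. Quantile normalization moved it from 0.13 to -0.07 in RESTko and from 0.14 to -0.07 in the step to RESThet, and median centring moved it to -0.11 and -0.09. The collagen split then became 16 higher and 9 lower in RESTko with either scaling, and 12 higher and 15 lower in the step to RESThet. By type, 6 of 11 fibrillar genes rose and 1 fell in RESTko, and 5 and 1 in the step to RESThet. Of 7 beaded filament genes 6 and 3 rose, and none fell.

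Col6a3, the long chain of type VI collagen, rose most. On the RESThet arrays it read 9.04, 9.04 and 8.82 at TN, against 5.37, 5.14 and 5.18 on the RESTwt arrays at NP. The RESTko arrays read 5.09, 5.19 and 5.21 at NP and 8.99, 9.34 and 9.06 at TN. NP and TN arrays did not overlap, and the differences were 3.74 and 3.96 (SE 0.11 each, adjusted p = 3.52e-15 and 2.01e-15, limma), 13.4-fold and 15.6-fold. Its partner chains Col6a1 and Col6a2 rose by 2.20 and 1.88 to RESThet and by 2.74 and 2.09 in RESTko. In the mixed strain the 3 genes rose by 4.38, 2.24 and 2.62. The 3 chains assemble into a single type VI protein. The other beaded filament genes Col6a4, Col6a6 and Col28a1 rose by 0.38 to 0.50 in RESTko, and none of these was called in the step to RESThet. With quantile normalization these RESTko differences were 0.12 to 0.23 and not called. Col6a5 was not called in either step.

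Col3a1 read 10.35, 10.54 and 10.37 at TN on the RESThet arrays and 10.62, 10.74 and 10.77 on the RESTko arrays, where it was 2.66 and 3.30 above NP (SE 0.22 each, adjusted p = 4.08e-09 and 2.18e-10, limma). The mixed strain had a difference of 3.09. Col1a1 (chromosome 11) read 5.95, 6.24 and 6.27 at ES, 7.82, 6.80 and 7.11 at NP and 9.61, 9.82 and 9.66 at TN on the RESTwt and RESThet arrays, so no stage overlapped another. In RESTko it read 6.52, 6.64 and 6.00, then 6.94, 7.06 and 7.49, then 9.72, 9.67 and 10.08. The step to TN was 2.45 to RESThet, 2.66 in RESTko and 2.59 in the mixed strain, or 5.48-fold, 6.33-fold and 6.01-fold. Col1a2 rose by 1.62, 1.66 and 1.39 in the same 3 steps. Fibroblast and mesenchyme markers moved with these genes: Postn rose by 5.48 to RESThet, 6.27 in RESTko and 2.10 in the mixed strain, and Dcn, a proteoglycan on collagen fibrils, by 4.56, 6.05 and 4.77. Lum, another such proteoglycan, rose by 2.80, 4.19 and 1.27. Of the 10 markers 6 rose and 2 fell (Pdgfrb and Fbln1) in the step to RESThet, 7 rose and 1 fell (Fbln1) in RESTko, and 6 rose and 2 fell (Twist1 and Fbln1) in the mixed strain. The part of these cells in the collagen changes was not tested.

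Smaller rises to TN came from fibril-associated and non-fibrillar genes. Col15a1, the other multiplexin, rose by 1.10 to RESThet, 1.18 in RESTko and 1.37 in the mixed strain. On the 6 mixed-strain arrays Col14a1, Col15a1, Col19a1, Col23a1 and Col25a1 lay below the median gene at every stage. The FACIT genes Col14a1, Col16a1 and Col19a1 were called higher in all 3 steps, with Col14a1 at 1.49 to RESThet, 0.83 in RESTko and 1.22 in the mixed strain, where another Col14a1 probe set gave -0.15. The mixed-strain probe sets of Col19a1 gave -0.24 to 1.47. The Col16a1 rise to RESThet, 0.47, was 0.24 and not called with quantile normalization or median centring. Col25a1, the transmembrane collagen known from neurons, read 6.25, 6.30 and 6.14 on the RESThet arrays and 4.83, 4.68 and 4.46 on the RESTwt arrays at NP. It rose by 1.57 to RESThet and 1.50 in RESTko, but the mixed-strain arrays read 4.74 and 4.21 at NP and 4.27 and 4.44 at TN (difference -0.12, adjusted p = 0.64, limma). The other mixed-strain probe set of Col25a1, with a lower mean signal, gave 1.87. Col23a1, of the same membrane group, rose by 0.56 in RESTko and 1.33 in the mixed strain, with 0.21 in the step to RESThet.

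On the 18 arrays Col18a1 fell most at TN. It read 6.06, 6.11 and 5.93 on the RESThet arrays and 5.75, 6.22 and 5.90 on the RESTko arrays, below all NP arrays. The difference was -2.34 to RESThet, -1.72 in RESTko and -3.54 in the mixed strain (SE 0.14, 0.14 and 0.21). Col2a1 at TN overlapped the RESTwt ES arrays in RESThet, with 6.16, 6.06 and 6.30, and lay above the RESTko ES arrays in RESTko, with 6.37, 6.14 and 6.45. It fell by 1.64, 0.82 and 4.05, the last being a 16.6-fold change between 9.09 and 8.66 at NP and 4.83 on both mixed-strain TN arrays. The cartilage marker list was higher at NP (log2 sum 9.01 to 9.58) than at TN (7.48 to 8.05) on the 18 arrays. In the mixed strain it was 7.27 to 7.47 at NP and 7.16 at TN. In each NP group 6 or 7 of its 8 genes were below the median gene, in RESTko all but Sox9. From ES to NP Acan, Comp, Matn1 and Matn3 were called lower in RESTwt and RESTko, and Sox9, Hapln1 and Cnmd higher. Col12a1 fell by 1.14, 0.93 and 0.50, and Col4a5 by 0.75, 1.09 and 1.05. The mixed-strain fall of Col4a5 was -0.60 and not called without TN replicate b, and the call also ended without NP replicate a. That of Col12a1 was -0.21 and not called as a mean over probe sets. Col4a6 fell by 0.56 and 0.70 on the 18 arrays, and Col9a2 by 0.46 and 0.42. The RESTko fall of Col9a2 was -0.28 and not called without NP replicate c, and was also lost without TN replicate b.

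**Figure D3:**
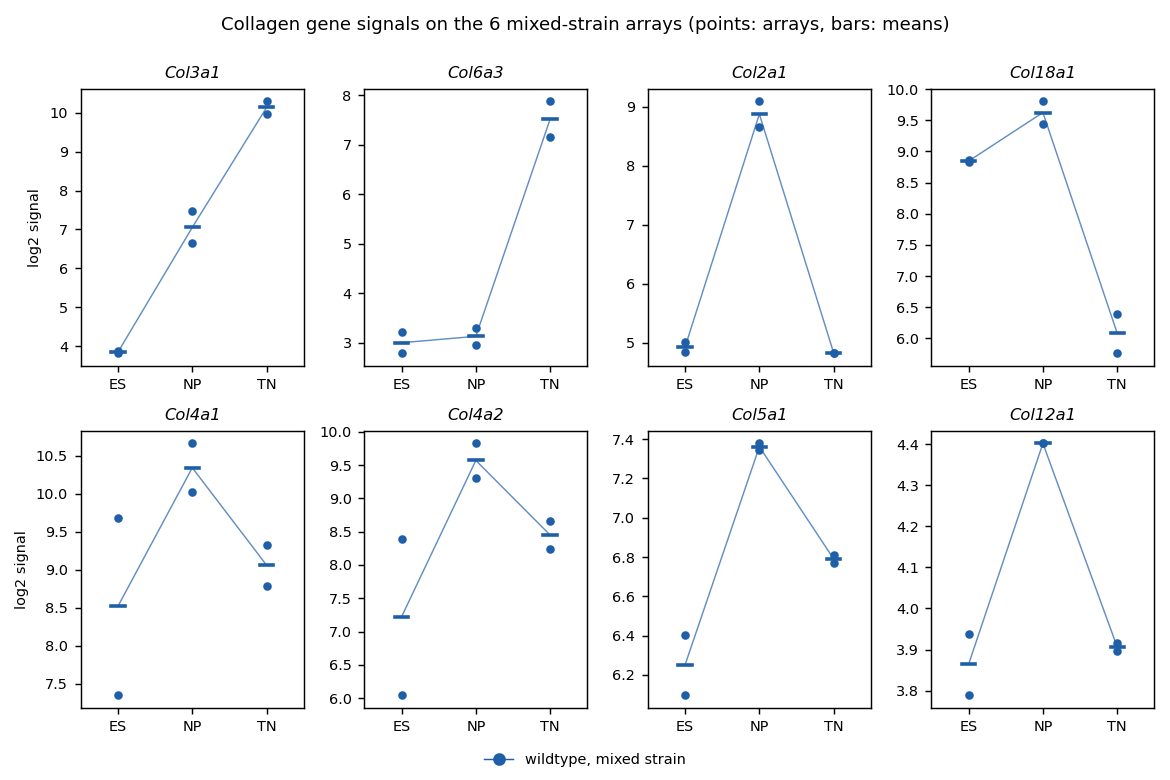
Log2 signals of 8 collagen genes on the 6 mixed-strain wildtype arrays, by stage; points are the 2 arrays of a stage, short bars their means, and each panel has its own axis. The 2 ES arrays lie far apart for Col4a1 and Col4a2, and Col5a1 is lower at TN than at NP.

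In the mixed strain 13 genes rose from ES to NP. Of these, 12 also rose in RESTwt (66.7% of the 18 there, 92.3% of the 13), and 12 in RESTko. Of the 4 that fell, 2 also fell in RESTwt and 1 in RESTko. Col18a1 was higher in the mixed strain and lower in RESTko. From NP to TN, 13 rose, of which 11 also rose in the step to RESThet and 12 in RESTko. Of the 8 that fell from NP to TN, 5 also fell in the step to RESThet (71.4% and 62.5%), and 4 in RESTko. Shared calls over all genes were not counted. These tables share no arrays. Col5a1 went against the RESTko step: it read 7.38 and 7.34 at NP and 6.81 and 6.77 at TN in the mixed strain, lower by 0.57 (adjusted p = 0.00834, limma), but was 0.87 higher at TN in RESTko cells. In the step to RESThet its difference was 0.22 and not called. Col11a1 and Col11a2 rose further in the mixed strain, by 1.32 and 1.40, against 0.19 and -0.08 in the step to RESThet, where Col11a1 was called but fell to -0.04 with median centring. Col9a3, of the cartilage FACIT group, fell by 1.54 from ES to NP in the mixed strain, with 0.23 in RESTwt, and its 3 mixed-strain probe sets gave -1.54 to -0.12.

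Col4a1 and Col4a2 depended on the ES array. The 2 mixed-strain ES arrays read 7.35 and 9.69 for Col4a1 and 6.05 and 8.39 for Col4a2, replicate b being the one with more endoderm marker signal. The rise to NP was 1.82 for Col4a1 (adjusted p = 0.0444, limma), but 0.65 without ES replicate a and 2.99 without ES replicate b. For Col4a2 these values were 2.35, 1.18 and 3.53. Without either NP array the Col4a1 rise was not called. Parietal endoderm is known to make much type IV collagen. The endoderm list was at 7.53 and 8.94 on the ES arrays, 10.28 and 10.61 at NP and 6.63 and 7.18 at TN, and 4 of its 8 genes (Sox17, Sox7, Foxa2 and Thbd) were below the median gene at ES. Its part in the type IV change was not tested.

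Few collagen genes differed between genotypes, and those that were called lay at NP. No collagen gene was called at ES, where limma called 5.19% of all genes higher and 4.05% lower. At NP 4 of 44 were lower and 0 higher, beside 3.71% and 4.32% of all genes. At TN none was called, beside 0.802% of all genes called lower and 0.356% higher. At an unadjusted p under 0.05 (limma) the counts of 44 were 6 at ES, 8 at NP and 11 at TN. Of all 19938 genes, 4302, 3841 and 2342 passed that threshold. With array weights 4 genes were called at ES, while at TN other settings called 0 or 1.

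**Figure D4:**
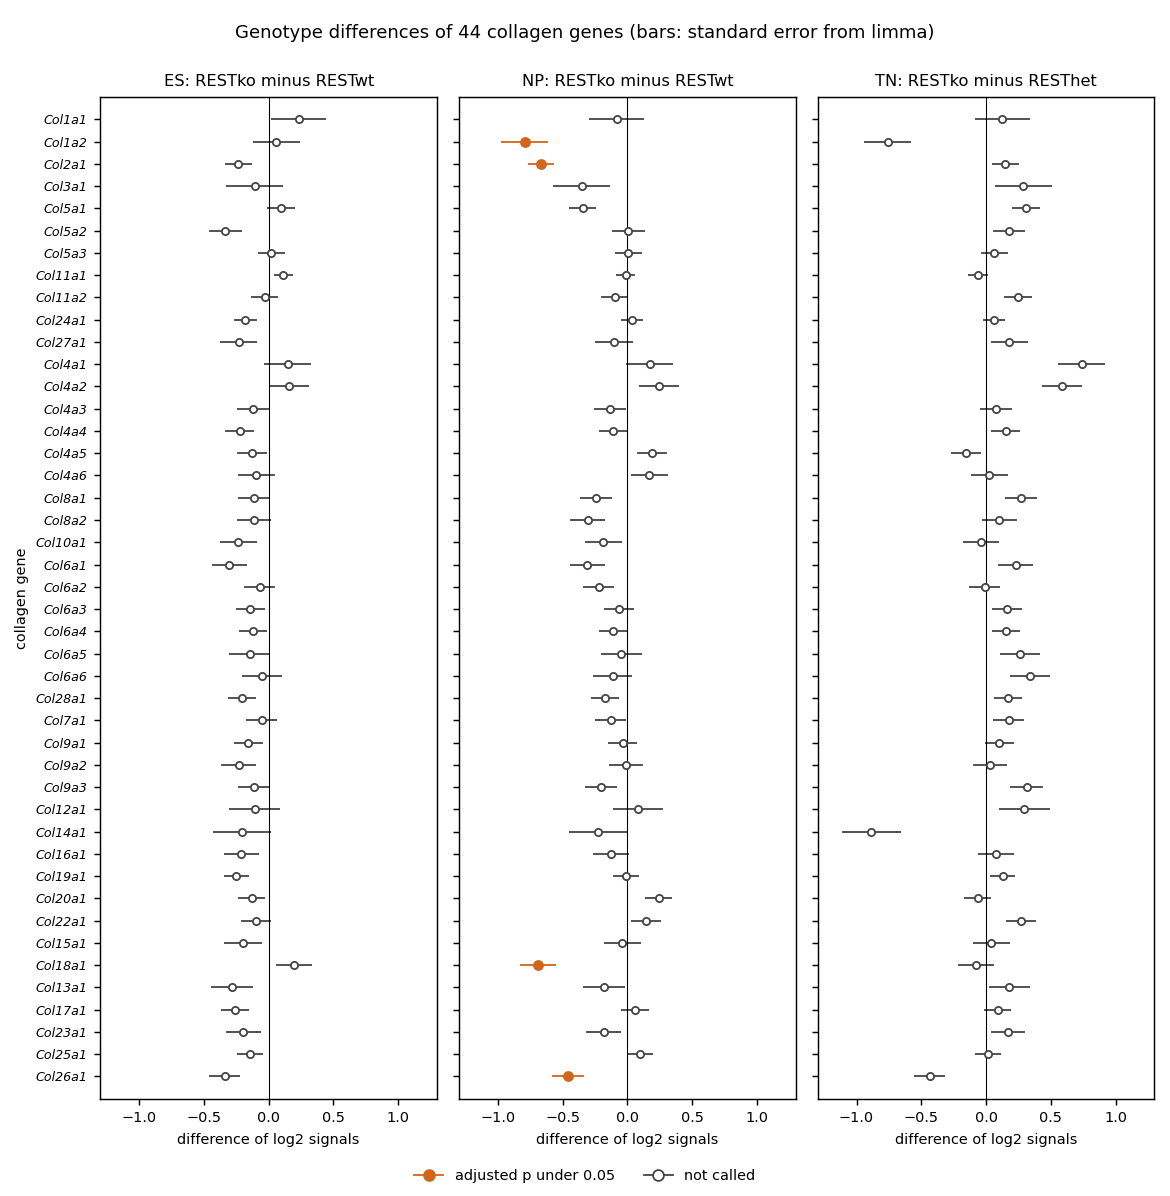
Differences of mean log2 signals between arrays labelled RESTko and their controls (RESTwt at ES and NP, RESThet at TN) for the 44 collagen genes; bars are standard errors from limma, and filled points have an adjusted p under 0.05. Filled points occur at NP alone, for Col1a2, Col2a1, Col18a1 and Col26a1, all lower in RESTko.

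The gene with the largest called difference between genotypes was Col1a2 (chr6:4505618-4541543, GRCm38.p6), the second chain of type I collagen. At NP it read 6.29, 6.28 and 6.56 in RESTko and 7.57, 7.08 and 6.86 in RESTwt. The groups did not overlap. With means of 6.38 ± 0.16 and 7.17 ± 0.36 (SD, n = 3 each), RESTko was lower by 0.79 (SE 0.18, 1.73-fold, adjusted p = 0.0107, limma). At TN it lay between 7.68 and 8.42 in RESTko (8.03 ± 0.37) and between 8.74 and 8.86 in RESThet (8.79 ± 0.06, SD, n = 3 each). That difference of -0.76 had an adjusted p of 0.0525. At ES the difference was 0.06. Col1a1, whose product joins that of Col1a2 in each type I molecule, differed by -0.08 at NP and 0.13 at TN, with overlapping arrays. Set against Col1a1 on the same array, Col1a2 was lower in RESTko by 0.71 at NP and 0.88 at TN, with no overlap between groups (exact permutation test, two-sided, p = 0.1, the smallest that 3 arrays against 3 allow). Such separation was not particular to type I. Col6a2 set against Col6a1 also separated at ES (0.23) and TN (-0.24), and Col4a2 against Col4a1 at TN (-0.15). These 3 pairs overlapped at the remaining stages. In a fit of the NP groups alone the Col1a2 call was lost (adjusted p = 0.0559), as it was without RESTko replicate a (adjusted p = 0.0501, limma).

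Col2a1 (chr15:97975602-98004724) had the smallest adjusted p. Its NP arrays read 6.95, 7.23 and 7.24 in RESTko and 7.75, 7.86 and 7.81 in RESTwt, a difference of -0.67 (SE 0.10, adjusted p = 0.000461, limma) with no overlap. It was -0.23 at ES and 0.15 at TN, neither called. Col18a1 (chr10:77052178-77166530), with NP values given above, was lower in RESTko by 0.69 (SE 0.14, 1.62-fold, adjusted p = 0.00427, limma), after 0.20 at ES and before -0.08 at TN. In the fit of the NP groups alone its adjusted p was 0.07. Col26a1 (chr5:136741759-136883376) read 6.67, 6.59 and 6.87 in RESTko and 7.28, 7.01 and 7.20 in RESTwt, lower by 0.46 (SE 0.12, adjusted p = 0.0244, limma). Its difference was -0.34 at ES and -0.43 at TN, so that it had the same sign at each stage, but the NP call was lost in the fit of the NP groups alone (adjusted p = 0.0657, limma) and without any of 4 of the 6 NP arrays. Only Col2a1 kept its call under each setting tried. Col5a1 came next, at -0.35 (adjusted p = 0.0577, limma).

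Promoter windows of Col1a2 and Col18a1, which had the largest called genotype differences, show which short motifs lie before their starts. RefSeq's GRCm38.p6 promoter table gave 38 windows for 35 of the collagen genes, with none for Col2a1 and Col26a1, and Col18a1 has 2 starts. The windows hold the 250 bases before the start, 5′ to 3′ on the strand of the gene: chr6:4505368-4505617 on the plus strand for Col1a2, and chr10:77166531-77166780 (start 1) and chr10:77113706-77113955 (start 2) on the minus strand for Col18a1. Capitals mark matches, on either strand, to the GC box GGGCGG, the CCAAT box CCAAT, the TATA box TATAAA, and the left and right parts of RE1, TTCAGCACC and GGACAG.
Col1a2: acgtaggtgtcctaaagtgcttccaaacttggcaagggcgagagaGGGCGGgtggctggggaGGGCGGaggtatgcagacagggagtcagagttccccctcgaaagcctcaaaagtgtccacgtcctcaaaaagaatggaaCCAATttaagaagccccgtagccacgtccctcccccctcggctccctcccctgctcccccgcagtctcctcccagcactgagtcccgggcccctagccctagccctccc
Col18a1 start 1: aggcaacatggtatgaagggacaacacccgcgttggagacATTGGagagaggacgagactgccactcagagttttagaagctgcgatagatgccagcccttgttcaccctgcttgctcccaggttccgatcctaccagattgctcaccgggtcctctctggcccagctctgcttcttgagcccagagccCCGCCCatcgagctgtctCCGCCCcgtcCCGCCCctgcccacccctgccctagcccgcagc
Col18a1 start 2: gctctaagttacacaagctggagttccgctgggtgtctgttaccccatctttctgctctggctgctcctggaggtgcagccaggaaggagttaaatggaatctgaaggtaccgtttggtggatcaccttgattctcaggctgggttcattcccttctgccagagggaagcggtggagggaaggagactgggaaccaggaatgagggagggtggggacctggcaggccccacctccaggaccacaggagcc

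The Col1a2 window holds 2 GC boxes and 1 CCAAT box, start 1 of Col18a1 holds 3 GC boxes and 1 CCAAT box, and start 2 holds no match. A GC box was in 32.74% of all 32851 windows of that length in the table and in 22 of the 38 collagen windows. A CCAAT box was in 33.85% and in 13 of 38, and a TATA box in 12.37% and in 5 of 38, those of Col3a1 and Col10a1 included. The left part of RE1 was in 0.3014% of all windows and in 0 of the collagen windows, and the right part in 18.67% and in 6 of 38.

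The interaction between genotype and stage asks whether the genotype difference itself changed. From ES to NP 1 collagen gene was called, lower, and 0 higher, beside 2.55% and 2.31% of all genes: Col18a1 at -0.89 (SE 0.20, adjusted p = 0.0121, limma). Col1a2 had -0.85 (adjusted p = 0.0682, limma). From NP to TN, where the control changes from RESTwt to RESThet, 2 were called higher and 0 lower, beside 1.40% and 2.51%. These were Col2a1 at 0.82 (SE 0.14, adjusted p = 0.00341, limma) and Col5a1 at 0.65 (SE 0.15, adjusted p = 0.0212, limma). Col5a1 read 6.08, 6.32 and 6.35 in RESTko and 6.66, 6.63 and 6.51 in RESTwt at NP, and 7.03, 7.06 and 7.29 in RESTko and 6.91, 6.79 and 6.74 in RESThet at TN, so that RESTko lay below its control at NP and above it at TN. Its interaction was not called without RESTko replicate a at NP, and 3 other arrays had the same effect when left out (adjusted p up to 0.062, limma).

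At TN the values of Col4a1, Col4a2 and Col14a1, singled out after they were seen, did not overlap between genotypes. Separation at TN was not particular to them, as Col1a2, Col3a1, Col5a1 and Col8a1 did not overlap either. How many of all genes separate in this way was not counted. Col4a1 (chr8:11198423-11312889) read 7.81, 8.60 and 7.93 in RESTko and 7.34, 7.52 and 7.26 in RESThet, 0.74 higher (SE 0.18, adjusted p = 0.0602, limma). Col4a2 (chr8:11312805-11449287) read 8.08, 8.61 and 8.16 against 7.67, 7.79 and 7.62, 0.59 higher (SE 0.16, adjusted p = 0.0848, limma). Both were highest on RESTko replicate b, and without it the differences were 0.50 and 0.42. The whole of chromosome 8 leaned the other way in RESTko at the earlier stages: its 955 genes had a median difference of -0.17 at ES and -0.19 at NP, and -0.04 at TN, against -0.02, 0.01 and -0.02 for genes elsewhere. Col4a1 and Col4a2 were at 0.15 and 0.16 at ES and 0.17 and 0.25 at NP. All 8 endoderm markers had a positive difference at TN (median 0.49), of which Dab2 at 0.85 was called. The laminin chains Lama1 and Lamb1, partners of type IV collagen in basement membranes, were higher by 1.53 and 0.87 (adjusted p = 0.000895 and 0.0395, limma). The part of endoderm in this was not tested. With quantile normalization Col4a1 passed at 0.83 (adjusted p = 0.0405, limma).

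Col4a1 and Col4a2 face away from each other on chromosome 8, and the gene ranges given above overlap by 85 bases. Their promoter windows are therefore shown as a pair, chosen after the values were seen: chr8:11312827-11313076 on the minus strand for Col4a1 and chr8:11312555-11312804 on the plus strand for Col4a2 (RefSeq, GRCm38.p6, capitals as above). The Col4a1 window lies before a start inside its gene range, so some of its bases fall within that range.
Col4a1: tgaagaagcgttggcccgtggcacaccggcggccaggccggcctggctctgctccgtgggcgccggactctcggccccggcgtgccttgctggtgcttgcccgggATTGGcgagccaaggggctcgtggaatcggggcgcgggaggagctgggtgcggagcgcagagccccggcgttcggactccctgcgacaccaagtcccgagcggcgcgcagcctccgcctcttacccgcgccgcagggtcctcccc
Col4a2: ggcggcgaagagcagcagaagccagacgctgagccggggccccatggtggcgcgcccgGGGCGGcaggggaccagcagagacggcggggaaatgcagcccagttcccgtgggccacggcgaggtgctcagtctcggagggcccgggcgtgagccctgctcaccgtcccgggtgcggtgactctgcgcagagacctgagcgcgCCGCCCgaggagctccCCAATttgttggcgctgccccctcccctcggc

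The Col4a1 window holds 1 CCAAT box, and the Col4a2 window holds 2 GC boxes and 1 CCAAT box. The difference between Col4a2 and Col4a1 on an array changed with genotype by 0.01 at ES, 0.07 at NP and -0.15 at TN. The groups overlapped at ES and NP but not at TN. Other collagen genes also lie side by side within 50000 bases, and their pairs did not move alike. Col3a1 and Col5a2, 24624 bases apart on chromosome 1, differed by 2.41 and -0.47 from ES to NP in RESTwt. Col4a5 and Col4a6, 1274 bases apart on the X chromosome, both rose.

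Col14a1 (chr15:55307644-55520803), a FACIT chain of type XIV collagen, read 6.18, 5.91 and 6.31 in RESTko and 6.59, 7.52 and 6.94 in RESThet at TN. It was 0.88 lower in RESTko (SE 0.23, adjusted p = 0.0715, limma), and 0.63 lower without RESThet replicate b. Over all 44 collagen genes most of the small differences were negative at ES and NP and positive at TN, where the control is RESThet. At ES 36 were negative (median -0.13, all genes -0.03), beside 11330 of all 19938 genes. At NP 32 were negative (median -0.11, all genes 0.01), beside 9434 of all genes. At TN 35 were positive (median 0.14, all genes -0.02), beside 8899 of all genes. The 30 collagen genes with a mean signal under 6 had a median of -0.15 at ES and 0.14 at TN, against -0.06 and -0.0020 for all genes as dim.

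Among 59 genes that make, process, bind or degrade collagen or share its basement membranes, 11 were called at ES (18.6%, beside 9.24% of all genes), 9 at NP (15.3% beside 8.03%) and 5 at TN (8.47% beside 1.16%), in both directions. Of 17 genes for collagen modification and folding, 2 were higher and 1 lower at ES, 1 and 1 at NP, and 1 and 0 at TN. Colgalt1, which adds galactose to collagen and lies on chromosome 8, was lower in RESTko by 0.54 at ES and 0.37 at NP. P4ha2, a subunit of the prolyl hydroxylase that stabilizes the triple helix, was higher by 1.05 at TN (adjusted p = 0.000742, limma). Among 11 processing and cross-linking genes, Pcolce, an enhancer of the C-proteinase, was lower by 0.84 at NP (adjusted p = 0.00378, limma), and Pcolce2 was lower by 0.73 at ES, where Bmp1, the C-proteinase, was higher by 0.39. Of 9 receptors, Itga1 and Ddr1 were higher at ES by 0.93 and 0.64, Itgb1 and Itga2 were lower at NP by 0.58 and 0.40, and Ddr1 and Lair1 were lower at TN by 0.50 and 0.41. The collagenase Mmp2 and the inhibitor Timp1 were lower at NP by 0.78 and 0.80, of 9 degradation genes. Of 13 basement membrane partners, Lamb1 and Lama3 were higher at ES by 0.68 and 0.39 and Nid1 was lower by 0.41, while Hspg2 and Lama5 were lower at NP by 0.62 and 0.71. Colgalt1, Itgb1 and Mmp2 lie on chromosome 8, whose median at NP is given above.

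Marker lists of other cells did not all move with the 4 genes lower in RESTko at NP. Of 10 fibroblast and mesenchyme markers 2 were lower in RESTko, Dcn by 1.16 and Lum by 0.83, and 8 had a negative sign; their log2 sum was 9.68 to 10.01 in RESTko and 9.70 to 10.02 in RESTwt. Of 7 endothelial markers Cdh5 and Emcn were lower, by 0.90 and 0.93, and all 7 were negative (log2 sum 7.79 to 8.34 against 8.45 to 8.71), with Kdr, Tek, Emcn and Cldn5 below the median gene in both genotypes. The log2 sum of the cartilage list was 9.34 to 9.58 in RESTko and 9.01 to 9.32 in RESTwt. The genes of that list had no common direction: 4 were positive and 4 negative (median -0.01). The only one called, Hapln1, was lower by 0.94. All but Sox9 were below the median gene in RESTko, and 6 of 8 in RESTwt, so the sum was not set against Col2a1. Neuron markers were higher in RESTko at NP, with 5 of 8 called. At ES 4 of the 8 (Tubb3, Map2, Snap25 and Nefl) were already called higher in RESTko and 0 lower. Since REST silences neuronal genes, this list cannot tell more neurons from more signal of these genes. The part of the cells behind these lists in the differences was not tested.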

How the data were processed

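Total RNA of 24 samples was hybridized to 2 designs of Affymetrix arrays. The log2 probe-set signals deposited by the authors were used as they stand. Per the submitters' processing notes they were made with oligo 1.14.0, with background correction and normalization not given in the sources used here. Probe sets were named from the arrays' annotation, with symbols looked up by gene number in GRCm38.p6, which changed 0 symbols. Of 35556 probe sets on the 18 arrays 21789 had 1 symbol, 1621 several and 12146 none; of 45101 on the 6 arrays, 34958, 932 and 9211. The tables were never combined in a fit.

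Over all genes of a table, a model with one mean per group and no replicate block was fitted by lmFit and eBayes (two-sided tests) of limma 3.58.1, under R 4.3.3. The script was tested on simulated data. Arrays have no read depth, so the number of arrays limits the precision: the median SD of a collagen gene within a group of the 18 arrays was 0.13 to 0.17. The members, gene lists and tests were chosen with earlier results of these data known.

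The text may name every collagen gene. Values of single arrays are given for members called between genotypes without overlap, for members with the highest signal at a stage, and for others said to be singled out later. Differences are given for up to 6 called members in each direction of a stage step and up to 4 of an interaction, and for up to 3 partner genes in each direction. Alternatives were a replicate block, fits of the compared groups, quantile normalization, median centring, the mean over probe sets, omission of the dimmest 30% of genes, eBayes with trend and robust, array weights, and omission of each array.

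Same-lettered arrays of the 2 genotypes did not deviate together in every pair (correlations -0.14 to 0.40), so the letters were not taken as pairs. The highest correlations were those of letters a (0.40) and b (0.31) at NP, so pairing at that stage is not settled.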

Additional observations from a re-analysis of the deposited data

Results flagged for a closer look

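Several collagen genes had a genotype difference that changed between stages. The difference of Col18a1 between RESTko and RESTwt changed by -0.89 from ES to NP, a called interaction in limma. Of all genes 2.55% were called lower in that interaction. The difference of Col2a1 changed by 0.82 and that of Col5a1 by 0.65 from NP to TN, also called, beside 1.40% of all genes called higher. There the control changes from RESTwt to RESThet, so a change with stage cannot be told from a change of control. The Col5a1 call was lost in 4 of 12 omissions of a single array. For Col8a1, a chain of the short-chain network collagens, all RESTko arrays were below the RESTwt arrays at NP (-0.24) and above the RESThet arrays at TN (0.27). Its change of 0.52 was tested and not called.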

How the results depend on the processing

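Among the called collagen genes, the direction turned for Col11a1 from RESTwt NP to RESThet TN, where 0.19 became -0.002 with quantile normalization and -0.040 with median centring. Between genotypes 4 collagen genes were called at ES with array weights (0 otherwise outside single-array omissions), 1 at NP when the compared groups were fitted alone, and 2 in the interaction from ES to NP with array weights. At TN 1 was called with the replicate block (Col14a1), with quantile normalization (Col4a1), and with median centring or without the dimmest 30% of genes (Col1a2). With single arrays left out the counts ranged from 0 to 2 at ES (2 without RESTwt replicate a), 2 to 5 at NP (2 without RESTko replicate a), 0 to 1 at TN, 1 to 2 in the interaction from ES to NP, and 1 to 4 in that from NP to TN (4 without NP RESTwt replicate c). With a replicate block, whose letters the labels do not explain, 0, 4 and 1 collagen genes were called at ES, NP and TN. Over all genes, array weights gave 3430 calls at ES against 1842, and 1537 against 970 in the interaction from ES to NP. Fits of the compared groups alone gave 549 against 1602 at NP, 50 against 231 at TN (27 with the block as well), and 436 against 780 in the interaction from NP to TN. In the mixed strain the rises of Col4a1 and Col4a2 from ES to NP were not called by eBayes with trend and robust (adjusted p = 0.259 and 0.158, limma), nor that of Col4a1 and the fall of Col5a3 with the compared groups alone (adjusted p = 0.0697 and 0.0616, limma). Over all called collagen genes of the stage steps, 1169 values under other settings kept their call, 57 lost it and 2 turned, and with single arrays left out 675 kept it and 77 lost it. Of 24 genes called from ES to NP, 19 kept call and direction in RESTwt with median centring and 17 in RESTko with quantile normalization. From NP to TN 22 of 30 did so in RESTko with either scaling. The number of arrays, 2 or 3 a group, limits the precision.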
